A study of Mus musculus with 6 samples.

Results

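Sinusoidal endothelial cells of the fetal liver were described in 1 section of mouse liver taken at embryonic day 14.5 (E14.5). Cells were selected on their own transcript counts, by a rule that required 5 or more counts of Gpihbp1, Oit3, Lyve1, Kdr and Clec14a together and fewer than 3 counts of the complement genes C1qa, C1qb and C1qc together. The rule found 6677 gated cells among the 117329 cells of the section, a share of 5.69% with an exact binomial 95% interval of 5.56 to 5.82%, and the 6 sections of the series together held 521938 cells. The share depended on the minimum, at 9.66% with 3 counts and 3.24% with 8, and was 2.90% from transcripts over the nucleus. The minimum for the 5 endothelial genes was reached by 7679 cells, of which 1002 (13.0%) were removed by the limit on C1q, and C1q counts at or over that limit were found in 14983 cells (12.8%) of the whole section.

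The section came from untreated wild-type (C57BL/6) embryos, with no transgene, Cre or other engineered allele in any group used here. It was a 5 µm slice of formalin-fixed, paraffin-embedded fetal liver measured by Xenium, an imaging method that hybridises probes to RNA in place, reads each transcript as a spot and assigns it to a cell whose outline is expanded from its stained nucleus. The panel counted 477 genes, the section held 20952143 gene transcripts in cells, and the median cell had 167. The E13.5 fetal liver and the postnatal day 8 (P8) bone marrow, also from untreated wild-type mice, were used for side-by-side values only. Each condition had 1 section, so no difference was tested, the intervals cover counting error only, and spread over cells or over parts of the section is not spread between animals.

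Sinusoids are the wide, thin-walled capillaries of the liver. Their endothelial lining is pierced by fenestrae and clears material from blood through scavenger receptors such as the mannose receptor and stabilins. In the fetus these vessels run between cords of hepatoblasts and the blood-forming cells that fill the organ, chiefly erythroid cells and their central macrophages, and their endothelium also releases signals such as Wnt and BMP ligands. Fetal liver macrophages and sinusoidal endothelium share receptors such as the mannose receptor, and the C1q genes mark the macrophages.

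The gated cells lay in every major piece of the tissue. Cells were joined into pieces where neighbouring 50 µm squares each held at least 5 cells, and 4 pieces of at least 1000 cells held 99.3% of the section. The gated share was 5.07% in the largest piece of 57499 cells, 5.20% in the next of 27277, 8.47% in the third of 17319 and 5.80% in the last of 14400. The third piece was thus the richest and the other pieces lay close to each other. The sources used here do not say whether these pieces came from the same embryo. Over 27 tiles of 500 µm with at least 100 gated cells, the share ranged from 3.67 to 8.84%, with a median of 5.16%.

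**Figure D1:**
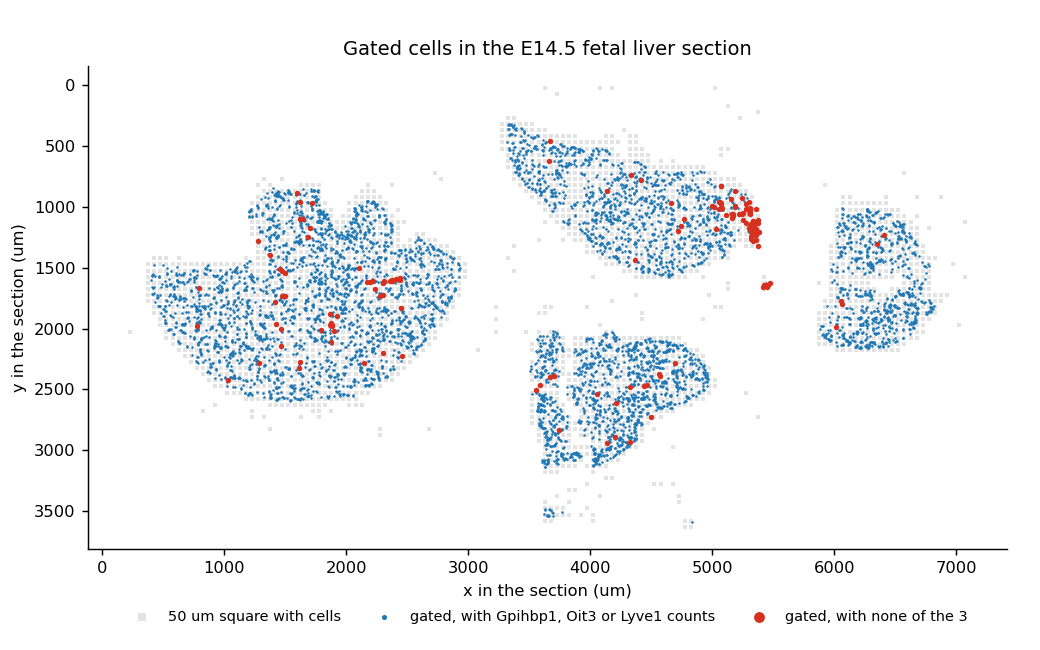
Positions of the gated cells in the E14.5 section, with both axes in µm; grey squares are 50 µm squares that held cells, blue points are gated cells with at least 1 count of Gpihbp1, Oit3 or Lyve1, and red points are the 153 gated cells with none of these genes. Blue points are spread over all 4 pieces of tissue, whereas 49 of the red points lie in 1 tile of 500 µm.

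Among the genes that defined the gate, Oit3, a secreted or surface protein known from liver sinusoids, contributed most counts. Gated cells held a mean of 3.96 ± 3.29 Oit3 counts (SD over cells), against 0.183 in all other cells, and 93.0% of gated cells had at least 1. Kdr, the main VEGF receptor of endothelium, followed with 3.14 ± 2.81 counts per gated cell and was found in 90.0% of them. Lyve1, a hyaluronan receptor shared by sinusoids, lymphatics and some macrophages, gave 2.27 ± 2.44 counts and was found in 78.2%.

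Clec14a, a C-type lectin of endothelium, gave 2.02 ± 2.09 counts and was found in 77.1% of gated cells. Gpihbp1, which carries lipoprotein lipase to the capillary surface, gave 0.304 ± 0.671 counts and was found in only 22.7%, so the gate rested on it little. Alone, Gpihbp1 reached the minimum in 16 cells, whereas Oit3 did so in 2052, Kdr in 1514, Lyve1 in 902 and Clec14a in 742. All 5 genes were seen in 955 gated cells (14.3%), 4 in 2872 (43.0%), 3 in 2197 (32.9%), 2 in 603 and 1 alone in 50. For each of the 5 genes, between 56.6 and 61.8% of the counts in the section lay in gated cells, so the rest of the signal fell in cells below the minimum or above the C1q limit.

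The summed count of the 5 genes had a median of 8, a mean of 11.7 ± 8.51 (SD over cells) and a maximum of 80. At the minimum of 5 lay 1300 cells, 2889 cells (43.3%) had 10 or more and 993 (14.9%) had 20 or more. Cells just inside and just outside the minimum lay close to each other in genes that the rule did not use. Tie1, an endothelial receptor tyrosine kinase, had a mean of 0.756 counts in the 1793 cells with a sum of 4, 0.942 in those with a sum of 5, 5.05 in those with 20 or more and 0.0608 in those with none. Mrc1, the mannose receptor of sinusoidal endothelium and macrophages, had 0.819, 1.04, 7.22 and 0.0649 counts in the same 4 classes, and the BMP ligand gene Bmp2 had 0.216, 0.313, 2.04 and 0.0168.

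Mean counts of Tie1, Mrc1 and Bmp2 therefore climbed along the range of the sum, also across the minimum. Only means were read, so how single cells were distributed along it was not tested. The erythroid band 3 gene Slc4a1 had 12.3 counts per cell at a sum of 4, 11.9 at 5 and 8.40 at 20 or more. The erythroid gene list of 14 genes made up 45.9% of transcripts at a sum of 4, 43.8% at 5 and 23.5% at 20 or more.

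**Figure D2:**
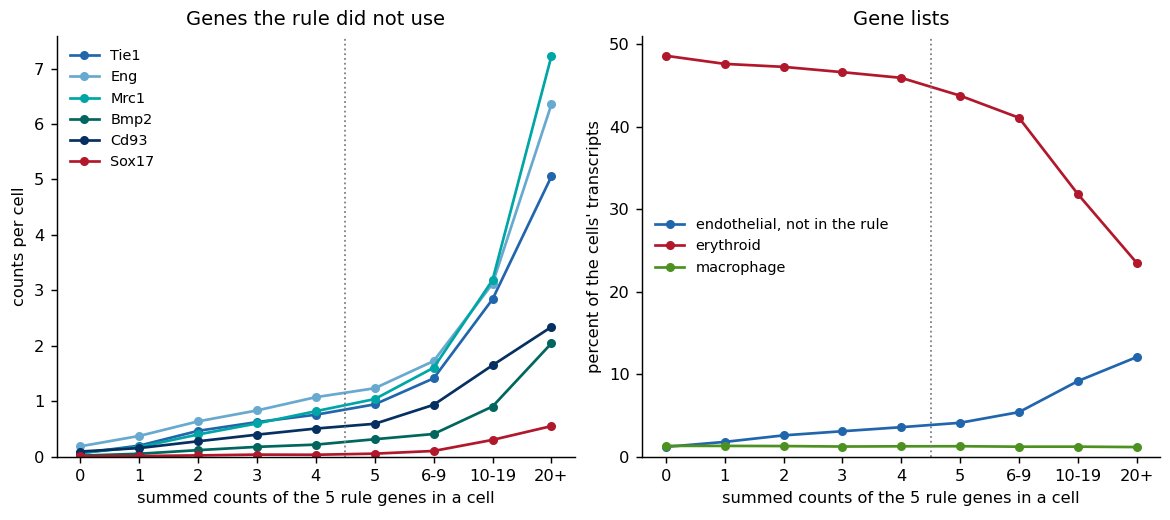
Mean counts per cell of genes the rule did not use (left) and percent of the cells' transcripts given by gene lists (right), by the summed counts of the 5 rule genes in a cell, for cells under the C1q limit. Mean counts of the genes on the left climb across the minimum of 5, with Tie1 at 0.756 counts for a sum of 4 and 5.05 for 20 or more. Between the same classes the erythroid share falls from 45.9 to 23.5%.

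Gated cells were larger and held more transcripts than the rest, and a minimum of raw counts by itself favours such cells. Under the C1q limit, the median was 160 transcripts in cells with no count of the 5 genes and 182 to 188 at sums of 1 to 4. It was 181 at a sum of 5, 171.5 at 10 to 19 and 222 at 20 or more. Gated cells had a median of 186 transcripts from 62 genes, against 166 transcripts from 50 genes in other cells. The median cell area was 57.5 µm² against 47.5 µm², whereas the median nuclear area was 27.6 µm² against 26.5 µm². The median cell had 53.3% of its transcripts over the nucleus, against 58.5% in other cells. Values below are therefore given as ratios of counts scaled to the total transcripts of the same cells (CPM), gated over all other cells, and since every gene was read in the same cells that the rule picked, they describe those cells and are not tests. Each gene has its own probes, so counts of different genes say how each filled the gate and not which gene was more expressed.

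Of the 356 genes outside the rule with at least 500 counts in the section, 50 were at least 2-fold higher in gated cells (14%) and 63 at least 2-fold lower (17.7%), and the other 243 lay between. The median ratio over all 356 was 0.789. Endothelial genes stood far above that median. Of 14 tested endothelial genes, 11 were at least 2-fold higher and none was 2-fold lower, with a median ratio of 4.62, and these 14 and the low gene Rbp7 together made up 7.34% of gated transcripts against 1.49% of other transcripts. All 6 listed sinusoidal genes were at least 2-fold higher, with a median of 7.94 and a summed share of 4.65% against 0.669%. Against other cells under the same C1q limit the sinusoidal median was 13.2, with 19.1 for Mrc1 and 9.56 for Maf.

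The sinusoidal genes bear on the name given to these cells. Bmp2, which sinusoidal endothelium releases to set hepcidin in hepatocytes, had 0.773 counts per gated cell and 0.0431 per other cell, a CPM ratio of 15.8 (95% interval 15.2 to 16.4). Dnase1l3, a secreted DNase of sinusoids and some myeloid cells, had a ratio of 13.2 (12.7 to 13.8). Mrc1 had 2.78 counts per gated cell and a ratio of 9.73 (9.55 to 9.91).

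Maf, a transcription factor of sinusoidal endothelium and of macrophages, had 3.51 counts per gated cell and a ratio of 6.16. Cd36, a fatty acid and scavenger receptor found also on erythroid cells, had a ratio of 4.38, and the Wnt ligand gene Wnt2 had 2.90. The ratios held in each piece of tissue, from 11.2 to 17.6 for Bmp2, from 9.60 to 15.6 for Dnase1l3, from 8.36 to 11.5 for Mrc1 and from 2.53 to 3.13 for Wnt2. Against all other cells, 9 of the 11 tested macrophage genes outside the rule were 2-fold lower, but the rule took C1q-high cells out of the gated cells alone and so fixed this. Against other cells under the same C1q limit, none of the 11 was 2-fold higher or lower and their median ratio was 0.985, with 0.932 for the scavenger receptor gene Marco. The count of all genes at least 2-fold lower was 42 against those cells, and that of genes at least 2-fold higher was 53.

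Receptors and surface proteins common to endothelium were high as well. Tie1 had 2.27 counts per gated cell and 0.151 per other cell, a ratio of 13.3 (13.0 to 13.6) that ran from 9.48 to 15.5 over the 4 pieces. Calcrl, the receptor subunit for adrenomedullin, had a ratio of 8.40, the lectin-like glycoprotein gene Cd93 had 8.38, and Eng, the TGFβ co-receptor endoglin, had 8.19. Plvap, whose product forms the diaphragms of fenestrae, had a ratio of 7.12. The caveola genes Cavin2 and Cav1 had 5.33 and 3.92, and Cav1 ranged from 1.27 to 7.24 over the pieces.

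The remaining endothelial genes had ratios of 5.55 and below. Igfbp7, a secreted IGF-binding protein of vessel walls, had a ratio of 5.55, the G protein subunit gene Gng11 had 3.89, the cathepsin inhibitor gene Ctla2a had 3.49 and the sialomucin gene Cd34 had 3.13, which was 1.51 in the smallest piece. Below 2-fold lay Ackr3, a scavenging receptor for CXCL12, at 1.46, Tmem100 at 1.39 and the sialomucin gene Podxl at 1.34. Ackr3 and Tmem100 turned direction between pieces, from 2.19 to 0.676 and from 1.77 to 0.890. Rbp7, a retinol-binding protein gene with 336 counts in the section, lay under the minimum for testing and had a ratio of 0.973.

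Genes known from arteries, veins and other large vessels were mixed, with 4 of 7 at least 2-fold higher, 1 lower and a median of 2.40. Of all 356 tested genes, 14% were higher and 17.7% lower. Sox17, a transcription factor of arterial endothelium, had the highest ratio of any gene outside the rule, 16.5 (15.3 to 17.8), from 0.215 counts per gated cell against 0.0115. The surface antigen gene Ly6a had 6.92, Igfbp3 had 2.47 and Vwf, the clotting factor of endothelium and megakaryocytes, had 2.40. Mmrn1, a multimerin of platelets and endothelium, had 1.91. With cells that held 5 or more counts of Pf4 and Ppbp left out of gated and other cells alike, Vwf had 3.15 and Mmrn1 2.78, and 5 of the 7 genes were 2-fold higher. With those cells kept on both sides, Vwf had 1.17 and Mmrn1 1.13 in the smallest piece. The elastic fibre gene Fbln5 had 1.75 and Ly6c1 had 0.490. Tcf15, with 145 counts in the section, was not tested.

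Genes listed as niche signals, which are not all particular to endothelium, were mixed. Of 9 tested, 3 were at least 2-fold higher and 1 was 2-fold lower, with a median ratio of 1.06. Over all 356 tested genes, 14% were higher and 17.7% lower. The ligand genes Bmp2 and Wnt2, at 15.8 and 2.90, were counted with the sinusoidal genes. Cxcl16, a membrane-bound chemokine, had a ratio of 4.22, the Tie2 ligand gene Angpt2 had 3.20 and Pdgfb, which recruits mural cells, had 2.45 (4.54 with the Pf4 and Ppbp cells left out of both sides). The adhesion molecule gene Vcam1 had 1.13, Igf1 had 1.06 (2.34 against other cells under the C1q limit), Pdgfa had 1.03, Vegfa had 0.945 and Igfbp1 had 0.730. The cytokine gene Il18 was the 1 gene of the 9 tested that was 2-fold lower, at 0.376, a call that was lost against other cells under the C1q limit (0.682).

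Genes outside these lists with the highest ratios were AU021092 at 10.3, Gap43 at 8.44, Gm13889 at 7.55, Cyp4b1 at 7.45, Ccn3 at 6.30, Rasd1 at 5.42, Gatm at 5.07, Rab3b at 4.59, Timp3 at 4.15 and Ccdc80 at 3.99. Gap43 is best known as a growth cone protein of neurons, and it had 0.659 counts per gated cell against 0.0688. Timp3 encodes a matrix-bound inhibitor of metalloproteases, Ccn3 a matricellular protein, Cyp4b1 a cytochrome P450 and Gatm the first enzyme of creatine synthesis.

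The lowest ratios belonged to granulocyte and surface genes. Ctsg, the cathepsin of granulocyte granules, had a ratio of 0.0327, followed by the neutrophil elastase gene Elane at 0.0989, Fcnb at 0.101, Pglyrp1 at 0.103, S100a9 at 0.143, the G-CSF receptor gene Csf3r at 0.151 and the integrin gene Itgam at 0.173. The mesothelial uroplakin genes Upk3b and Upk1b had 0.138 and 0.174, and the endocytic receptor gene Lrp2 had 0.185. All 9 granulocyte genes were at least 2-fold lower, against 17.7% of all 356 tested genes, with a median of 0.151. The ratio of Elane lay between 0.0900 and 0.131 in the 4 pieces.

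**Figure D3:**
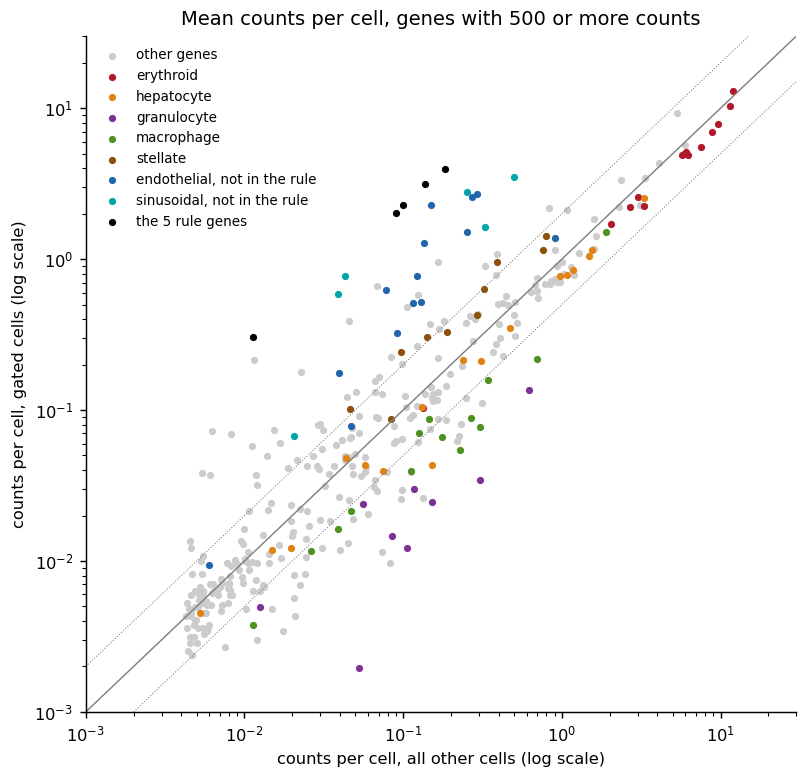
Mean counts per cell in gated cells (vertical) against all other cells (horizontal), both on log scales, for genes with 500 or more counts in the section, with colours for the lists described, a solid line for equal levels and dotted lines for 2-fold differences. Sinusoidal and endothelial genes lie above the diagonal, as Tie1 does with 2.27 counts against 0.151, granulocyte genes lie below it, and erythroid genes lie close to it.

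Transcripts of other cell types were present in the gated cells in quantity, and how many of them came from cells that overlap or touch the gated cells was not tested. The 14 erythroid genes made up 36.0% of gated transcripts against 47.8% of other transcripts, with a median ratio of 0.735 and no gene beyond 2-fold. The globin gene Hbb-bt had a ratio of 0.954, Slc4a1 0.791 and the haem synthesis gene Fech 0.720. The 17 tested hepatocyte genes had a median ratio of 0.648, and all listed ones a summed share of 4.09% against 6.27%, with 0.682 for Ambp, 0.645 for Gc and 0.623 for Slc27a2, and 5 or more counts of Ambp and Gc were found in 27.2% of gated cells and 37.4% of other cells.

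Mesenchymal genes lay above the median of all genes in gated cells. At least 2-fold higher were 2 of 10 tested stellate genes and 3 of 6 mural genes, against 14% of all 356 tested genes. The stellate count thus lay near the share of all genes. The 10 tested stellate genes had a median ratio of 1.66, and all listed ones a share of 2.81% against 1.76%, with 1.57 for Col1a2, 1.33 for Col1a1, 2.15 for the proteoglycan gene Bgn and 0.919 for Mfap4. The 6 tested mural genes, which are contractile genes of pericytes and smooth muscle, had a median of 2.06, with 2.39 for Tagln, 2.21 for Mylk and 1.80 for Myl9. At least 5 counts of Col1a1 and Col1a2 together were found in 899 gated cells (13.5%) and in 7.01% of other cells. Genes of dividing cells differed less, with 0.939 for Stmn1, 0.842 for Cenpf and 0.768 for Ube2c.

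A small set of gated cells held megakaryocyte transcripts. At least 5 counts of the platelet chemokine genes Pf4 and Ppbp together were found in 219 gated cells (3.28%) and in 3.02% of other cells. Compared with the 5233 gated cells that had neither transcript, these cells had a median of 260 transcripts against 180 and a median nuclear area of 35.8 µm² against 27.0 µm². Slamf1 was 183 times as high in them and the factor XIII gene F13a1 34.0 times, and Mmrn1 was 29.7 times, Pdgfb 12.5 times and Vwf 10.1 times as high. Tie1 had a ratio of 0.972 and Kdr 0.849, whereas Oit3 had 0.608 and Mrc1 0.615. These 219 cells held 1502 of the 2605 Mmrn1 counts in gated cells, 1976 of 5980 for Vwf and 307 of 821 for Pdgfb. Such cells were 3345 of the other cells, and left out of both sides they took the ratio of Slamf1 from 1.54 to 0.921 and of Ctla2a from 3.49 to 4.92, while 51 genes were at least 2-fold higher, 64 were lower and the median ratio of endothelial genes was 5.26.

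The gated cells were also described by their neighbours, that is, the cells with centres within 20 µm. A gated cell had 21.8 ± 5.61 neighbours of any kind (mean ± SD over cells) and another cell 23.6 ± 5.49. Gated cells lay next to each other more often than other cells lay next to them. A gated cell had 2.41 ± 1.82 gated neighbours against 1.17 ± 1.40 around other cells, which was 11.1% against 4.97% of all neighbours.

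At least 1 gated neighbour was found around 86.5% of gated cells (85.6 to 87.3%) and 57.3% of other cells (57.0 to 57.6%), and at least 3 around 42.0 and 15.9%. The ratio of mean gated neighbours was above 1 in all 27 tiles, from 1.31 to 2.53 with a median of 2.01, and was 2.15, 1.77, 1.82 and 2.26 in the 4 pieces from the largest to the smallest. An elongated cell cut into several outlines would also raise this number, and that was not tested. The nearest other gated cell lay at a median of 8.21 µm, whereas the median distance from any other cell to its nearest gated cell was 18.1 µm.

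Joined wherever centres lay within 20 µm, the gated cells formed 2257 groups. Of these, 902 were cells alone and 482 were pairs, 87 groups held 10 or more cells and together 18.4% of all gated cells, and the largest held 38.

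Macrophages stood at about the same density around gated cells as around other cells low in C1q. A gated cell had 2.59 ± 2.49 C1q-positive neighbours, other cells had 2.99 ± 2.64, and at least 1 was found around 75.0 and 80.4%. However, the rule itself set a limit on C1q for the gated cells. Other cells under the same limit had 2.68 C1q-positive neighbours, and C1q-positive cells had 4.96. As a share of all neighbours, C1q-positive cells made up 11.9% around gated cells, 11.4% around other cells under the limit and 21.3% around C1q-positive cells, so that the order of the first 2 classes turned with the number of neighbours. The ratio of gated to all other cells, C1q-positive ones included, was above 1 in 3 of 27 tiles and ran from 0.641 to 1.07. Against other cells under the limit, the largest piece had 2.54 C1q-positive neighbours against 2.71 and the next 2.90 against 2.83. The third had 2.59 against 2.60 and the last 2.33 against 2.51. The median gated cell was 13.4 µm from its nearest C1q-positive cell.

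Among the summed lists outside the rule, the transcripts of the neighbours differed most for granulocyte genes. The other cells, however, included more cells with granulocyte transcripts of their own. At least 5 counts of Mpo and Elane together were found in 4.98% of other cells and 0.434% of gated cells. How far grouping of such cells raised the share around other cells was not tested. The 9 granulocyte genes made up 0.423% of the transcripts of cells around gated cells against 0.829% around other cells, a ratio of 0.510 that was below 1 in all 27 tiles, from 0.383 to 0.779. It was 0.484, 0.611, 0.578 and 0.412 in the 4 pieces, and 0.533 when gated neighbours were left out. In neighbours that were not themselves gated, Fcnb had a ratio of 0.454, Ctsg 0.465 and Elane 0.470. The mesothelial genes Upk1b, Upk3b and Krt19 were low too, at 0.372, 0.391 and 0.483, whereas Krt8, which gives most counts of that list, had 1.01. Here too the other cells held more of the cells in question, with Upk3b found in 2.22% of them and 0.674% of gated cells.

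Mesenchymal transcripts were more frequent around gated cells. The stellate list made up 1.69% against 1.36%, a ratio of 1.24 that was above 1 in 24 of 27 tiles, and the mural list 0.277% against 0.227%, a ratio of 1.22 that was above 1 in 21. Both were lower when gated neighbours were left out, at 1.18 and 1.16. Erythroid transcripts made up 46.9% against 48.3% (ratio 0.972, above 1 in 9 tiles) and hepatocyte transcripts 6.05% against 6.16% (ratio 0.981, above 1 in 9 tiles), and at a radius of 30 µm the hepatocyte ratio was 1.01. With gated neighbours left out, the hepatocyte ratio was also 1.01 and the erythroid ratio was 0.989. For these 2 lists the ranges over tiles, from 0.815 to 1.02 and from 0.857 to 1.12, spanned 1. Progenitor genes had a ratio of 0.899 and megakaryocyte genes 0.975, above 1 in 3 and 14 tiles. Most counts of the megakaryocyte list came from Plek2, which is known from other cell types too. In gated over other cells Plek2 had 0.713, near the erythroid median of 0.735, against 1.12 for Pf4 and 1.42 for Ppbp. The list is therefore not a reading of megakaryocytes alone. Plek2 had 97509 counts in the section, against 47301 for Pf4 and 31842 for Ppbp.

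Endothelial transcripts were also higher in neighbours that missed the gate. With gated neighbours left out, the endothelial list had a ratio of 1.24 and the sinusoidal list 1.26. The median over genes was 1.21 for 14 endothelial and 1.34 for 6 sinusoidal genes. It was 1.75 for the 5 rule genes, 1.22 for 10 stellate and 1.18 for 6 mural genes. A rise as such was therefore not particular to endothelial genes, though its size differed between lists and genes. For 17 hepatocyte genes the median was 1.01 and for 14 erythroid genes 0.987. Bmp2 had 1.73, Dnase1l3 1.56 and Plvap 1.50, whereas Cav1 had 1.01, Ackr3 0.941 and Cd34 0.763. Colec11, a collectin of stellate cells, had 1.34 in the same neighbours, the highest of the 10 stellate genes. Whether these are endothelial cells below the minimum or transcripts of gated cells drawn into the next outline was not tested.

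**Figure D4:**
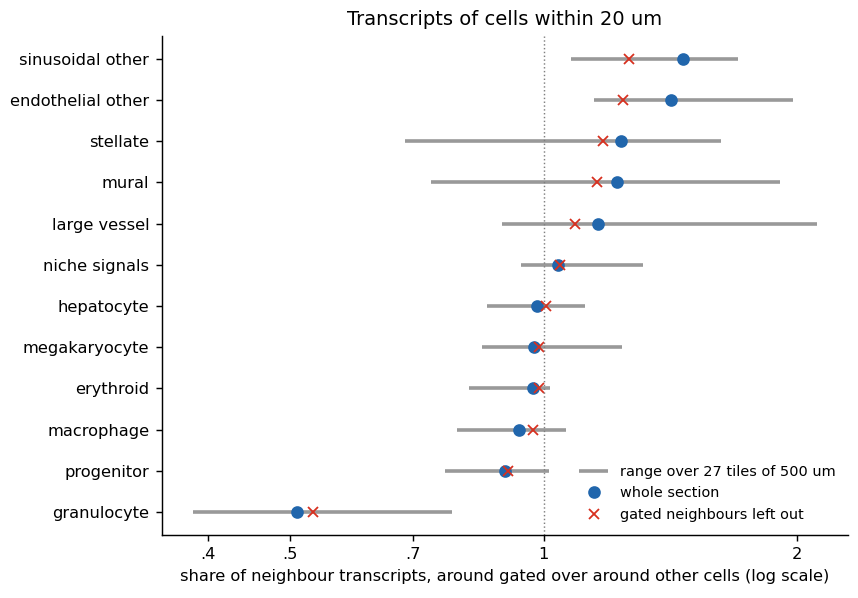
Share of transcripts given by each gene list in cells within 20 µm of gated cells, divided by the same share around all other cells, on a log scale; points are the whole section, crosses leave gated neighbours out, and bars are the range over 27 tiles of 500 µm. Granulocyte genes lie at 0.510 with the whole range below 1, endothelial lists lie above 1, and erythroid and hepatocyte lists have ranges that include 1.

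Gated cells also varied with their surroundings. The 2858 gated cells with 3 or more C1q-positive neighbours were set against the 1667 with none. Macrophage genes were higher in the former, with ratios of 3.97 for Marco, 3.35 for Adgre1 and 3.03 for Timd4, although all these cells lay under the C1q limit, and the part of neighbouring macrophages' transcripts in this was not tested. Lower in the former were Ccn3 at 0.131, the growth factor gene Ptn at 0.292, Ackr3 at 0.320, Ly6a at 0.374 and Cav1 at 0.437. Stromal genes were lower with them, at a median of 0.661 over 10 stellate genes and 0.554 over 4 mural genes, with 0.316 for Mfap4, 0.443 for Col1a1 and 0.504 for Tagln, and their part in the other ratios was not tested. The sinusoidal genes differed less, with 1.25 for Dnase1l3, 1.15 for Oit3, 1.14 for Mrc1, 1.01 for Lyve1 and 1.01 for Bmp2, and Tie1 had 0.833. The median was 0.771 over 13 endothelial genes and 1.14 over 14 erythroid genes, which ran from 1.07 to 1.21.

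The 2804 gated cells with 3 or more gated neighbours were compared likewise with the 902 that had none. Bmp2 had a ratio of 1.21, Lyve1 1.11, Oit3 1.10 and Mrc1 1.03, whereas Tie1 had 0.828, Gpihbp1 0.848, Dnase1l3 0.900 and Kdr 0.915. Calcrl had 1.08, Eng 1.06 and Podxl 1.11, so neither the sinusoidal nor the endothelial genes went 1 way. Low ratios were found for genes that were high in the gated cells with Pf4 and Ppbp counts, at 0.296 for Slamf1, 0.401 for Pdgfb, 0.404 for Mmrn1, 0.449 for Ppbp and 0.551 for Vwf. Macrophage and mural genes were low as well, at a median of 0.662 over 8 macrophage genes, with 0.466 for Aif1 and 0.530 for Cd5l, and 0.586 over 4 mural genes, with 0.524 for Myh11 and 0.593 for Tagln, whereas the median was 1.11 over 14 erythroid genes, 0.962 over 10 hepatocyte genes and 0.956 over 10 stellate genes. The part of these cells in the ratios was not tested.

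The gate could be filled without a sinusoidal gene, by Kdr and Clec14a alone. At least 3 counts of Gpihbp1, Oit3 and Lyve1 together were found in 5703 gated cells, 1 or 2 in 821 and none in 153. The 153 cells were few but differed from the larger set in size and surroundings and in several endothelial genes. Their median area was 101 µm² against 57.0 µm² for the 5703, they had 15.4 neighbours against 22.1, and 1.76 gated neighbours against 2.46. Among 206 genes outside the rule with at least 200 counts over both sets, 56 were at least 2-fold higher in the 5703 cells (27.2%) and 68 at least 2-fold lower (33%).

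Of the 6 sinusoidal genes, 4 were at least 2-fold higher in the 5703 cells, against 27.2% of all 206 genes. Dnase1l3 had a ratio of 23.2 (9.93 to 71.5), resting on 5 counts in the 153 cells, Mrc1 had 7.24 (5.78 to 9.19), Maf 3.40 and Cd36 2.10. Bmp2 had 1.52 and Wnt2 1.01. The split was itself made on 3 sinusoidal genes of the rule, so these values describe the sets and do not test the name sinusoidal. The mean sum of the 5 rule genes was 12.6 in the 5703 cells and 7.56 in the 153. Mrc1 and Dnase1l3 climbed with that sum, and its part in these ratios was not tested.

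The 153 cells instead held more of several endothelial genes. None of the 13 tested endothelial genes was 2-fold higher in the 5703 cells and 6 were 2-fold lower. Over all 206 genes, 27.2% were higher and 33% lower, so the lower count is to be read beside that share. Cav1 had 0.109 counts per cell in the 5703 and 1.88 in the 153, a ratio of 0.0681, and Cd34 had 0.141, Plvap 0.309, Cd93 0.314 and Cavin2 0.393. Of the 6 tested large-vessel genes, 4 were 2-fold lower, with 0.618 Vwf counts per cell against 5.67 (ratio 0.128), 0.123 for Ly6a and 0.122 for Mmrn1, and Sox17 had 0.401. Tie1 had a ratio of 0.515 and Calcrl 0.786. Of the 3 tested genes on the megakaryocyte list, Pf4 and Ppbp moved with Vwf and Mmrn1, being 2-fold lower in the 5703 cells. Plek2 was instead 2-fold higher, as were 11 of 14 erythroid genes. The list made up 0.689% of transcripts in the 5703 cells and 2.29% in the 153. At least 5 Pf4 and Ppbp counts were found in 154 (2.70%) and 22 (14.4%) of them. Without those cells Vwf had 0.142, Mmrn1 0.165, Cav1 0.0574 and Mrc1 5.90. The 153 cells were picked for having no counts of 3 sinusoidal genes, and Bmp2 and Wnt2 did not differ 2-fold between the sets. The name sinusoidal is therefore left aside for them, and they are called here only gated cells without the 3 genes.

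Stromal transcripts moved with this difference. All 5 tested mural genes and 8 of 10 stellate genes were 2-fold lower in the 5703 cells, against 33% of all 206 genes. Of the 153 cells, 92 (60.1%) held 5 or more counts of Col1a1 and Col1a2. In the cells around them, stellate genes made up 10.8% of transcripts, against 1.44% around the 5703, and erythroid genes made up 31.1% against 47.4%. The part of stromal transcripts in the other differences was not tested.

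Of the 153 cells, 49 lay in 1 tile of 500 µm, where they were 32.9% of the 149 gated cells, against 1.59% elsewhere. Cells of that tile had a mean of 15.4 counts of Col1a1 and Col1a2, against 1.39 elsewhere. Without the tile, the numbers of genes were 42 higher and 63 lower, and the ratios were 15.7 for Dnase1l3, 5.48 for Mrc1, 2.79 for Bmp2, 0.104 for Cav1 and 0.110 for Vwf. Calcrl changed direction, from 0.786 to 1.13.

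**Figure D5:**
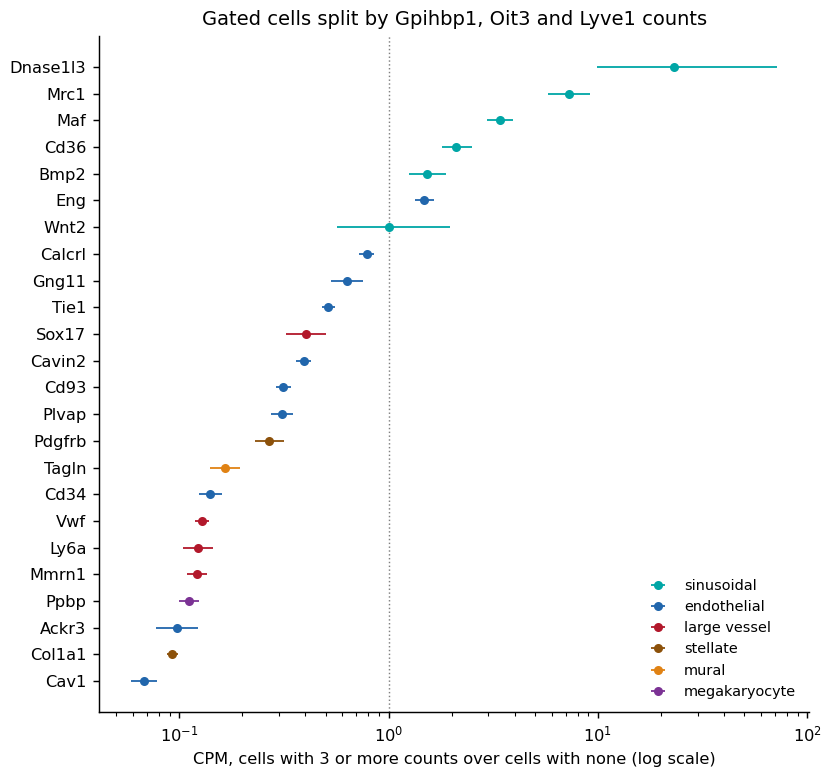
Ratio of CPM in the 5703 gated cells with 3 or more counts of Gpihbp1, Oit3 and Lyve1 to CPM in the 153 gated cells with none, on a log scale, with 95% intervals for counting error and colours for gene lists. Dnase1l3 and Mrc1 lie highest at 23.2 and 7.24, while Cav1, Col1a1, Vwf and Cd34 lie below 0.2.

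The rule was also applied to the P8 marrow and, with the 3 of its 5 genes on that panel, to the E13.5 liver. The values stand side by side and no difference was tested. The marrow was read with the same panel as the E14.5 liver but is another tissue at another depth, and the E13.5 section had a different panel and cells outlined with further stains. In the E13.5 liver it found 88 of 5285 cells, 1.67% (1.34 to 2.05%), by 3 of the 5 genes because Gpihbp1 and Oit3 were not on its panel of 5050 genes. In the P8 marrow it found 989 of 52594 cells, 1.88% (1.77 to 2.00%). With Lyve1, Kdr and Clec14a alone, the share was 3.53% at E14.5, 1.67% at E13.5 and 0.994% in the marrow.

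Endothelial genes had median ratios of 4.62 over 14 genes in the E14.5 liver and 7.31 over 8 in the E13.5 liver. In the marrow the median was 5.36 over 14. The E13.5 panel held only 9 of the 15 listed endothelial genes, so the liver medians cover different genes. Among the genes tested in both livers, Tie1 had 13.3 at E14.5 and 8.68 at E13.5, Eng 8.19 and 7.72, and Plvap 7.12 and 6.90. Calcrl had 8.40 and 8.98, Cd93 8.38 and 9.06, and Cd34 3.13 and 4.15. Podxl had 1.34 and 1.30, and Ackr3 1.46 and 1.19. The sinusoidal list had 7.94 over 6 genes, 9.85 over 4 and 1.77 over 5. A gene needed 50 counts in the small E13.5 section and 500 in the others, so these medians also rest on unlike filters. In the marrow, gated cells held 0.0647 Oit3 counts and 0.187 Lyve1 counts per cell, against 3.96 and 2.27 in the E14.5 liver, and Bmp2 had a ratio of 0.868 where the E14.5 liver had 15.8. Gpihbp1 had 2.07 counts per gated cell in the marrow against 0.304. The larger panel of the E13.5 section gave further genes known from endothelium or its signals, of which 10 of 13 with at least 50 counts were 2-fold higher, against 358 of 2641 such genes (13.6%) in the section. They had ratios of 15.1 for the VEGF receptor gene Flt4, 11.4 for Tek, 11.4 for Flt1, 8.93 for Pecam1, 7.69 for the junction gene Cdh5 and 3.95 for the transcription factor gene Gata4. The other 3 were the stem cell factor gene Kitl at 1.83, the Wnt enhancer gene Rspo3 at 0.912 and the chemokine gene Cxcl12 at 0.779.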

How the data were processed

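Raw counts per gene and cell were those deposited by the authors. Per the run description that accompanies the section, Xenium Onboard Analysis 1.7.1.0 decoded transcripts, gave each a quality score and segmented cells by expanding nuclei, whereas the methods of the study name Space Ranger. The panel held 379 predesigned and 98 custom genes. Deposited transcripts with a quality score of 20 or more were recounted per cell and differed from the deposited counts by 0; 97.2% of them lay in a cell and 57.2% of those over a nucleus. The highest control probe had 105 counts, below the minimum of 500 counts for a gene.

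No cell was removed, no doublets were called and transcripts from neighbours were not subtracted. Counts were summed over gated and other cells, scaled to CPM and divided. Intervals for ratios were conditional on the 2 Poisson counts, and those for shares were exact binomial (Clopper-Pearson), both at 95% and covering counting error only. A gene was called higher or lower from 2-fold. Named genes were the rule's genes, the endothelial lists, the 10 highest and 10 lowest others, and the 3 most abundant of each other list; genes outside this choice that are given by surroundings, split or section were chosen after their values were seen. Neighbours had centres within 20 µm. Sections shared at most 6 cell names by pair. The members and lists were chosen with earlier results of these data known. Alternatives covered the gate, radius, nuclear transcripts, scaling, tiles and reference cells. Python 3.11.15, numpy 2.4.6, scipy 1.17.1, pandas 2.3.3 and matplotlib 3.10.9 were used, and the calculation was tested on simulated data.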

Additional observations from a re-analysis of the deposited data

How the results depend on the processing

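Each section had no replicate, so no replicate could be left out. No paired analysis was possible because each condition had 1 section and no result came from a test. A share or ratio is said to have moved where it left its counting interval, and a number of genes where it changed by more than a set fold. The counting interval is narrow at this depth, so small shifts are listed as well. Among the larger shifts were the share under other minimums and the gated neighbour ratio at other radii. The share of gated cells was 9.66% with a minimum of 3 counts, 3.24% with 8, 6.54% without the C1q limit, 2.90% from transcripts over the nucleus, 4.69% without Lyve1 and 4.18% without Kdr. Genes at least 2-fold lower numbered 39 without the C1q limit. The median ratio of endothelial genes was 4.09 and 5.60 with minimums of 3 and 8 counts, 5.93 over the nucleus, 5.25 per cell, 4.87 with the rule's genes and Hbb-bt taken out of the total, 4.85 against other cells under the C1q limit, 6.63 against cells with no count of the rule's 5 genes, 3.92 with no minimum per gene and 4.46 within 200 µm tiles.

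The ratio of gated neighbours, 2.06 at 20 µm, was 2.89 at 15 µm and 1.46 at 30 µm, 1.95 and 2.00 with minimums of 3 and 8, and 1.87 with other cells weighted to the same tiles. The ratio of C1q-positive neighbours, 0.866, was 0.783 at 15 µm, 0.932 at 30 µm, 0.965 against cells under the C1q limit and 0.886 with C1q-positive cells taken from 10 counts. The erythroid neighbour ratio of 0.972 was 0.969 at 15 µm, 0.974 at 30 µm, 0.976 and 0.971 with minimums of 3 and 8, 0.985 weighted by tile, 0.981 over the nucleus and 0.964 without Hbb-bt, Tfrc and Car2. The hepatocyte neighbour ratio of 0.981 was 0.929 at 15 µm, 1.01 at 30 µm, where its direction turned, 0.984 with a minimum of 8, 0.964 against cells under the C1q limit and 0.985 over the nucleus. Its direction also turned with gated neighbours left out, at 1.01. Leaving out cells with 5 or more Pf4 and Ppbp counts was chosen after seeing the data. On both sides it gave an endothelial ratio of 5.26. From the gated side alone, where other cells keep theirs and ratios of megakaryocyte genes must fall, it gave a share of 5.50%, an endothelial ratio of 4.33, an erythroid ratio of 0.974 and a hepatocyte ratio of 0.986. The cause of the other shifts was not tested. Genes low on the panel, such as Rbp7 and Tcf15, had too few counts to be read.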
